A study of Ogataea parapolymorpha with 16 samples.

Results

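Ndh2-1 is 1 of the 3 putative alternative NADH dehydrogenases of the yeast Ogataea parapolymorpha, and its transcript was followed here through 16 bioreactor cultures. The gene was chosen by its locus tag, HPODL_02792, which is 1 of the 5408 genes in the deposited tables and was found in all 16 samples. In the assembly that the reads were aligned to (Hansenula_2), it is a protein-coding gene of 1614 bp on chromosome VII, from position 732181 to 733794. The wild-type strain CBS11895 was compared with strain IMD010, a congenic strain and a single clone in which CRISPR/Cas9 editing placed a frameshift in NUBM (HPODL_04625), the gene for the NADH-binding subunit of respiratory complex I. Both strains were grown aerobically on glucose in 4 ways: in batch with glucose in excess, growing at 0.37 h-1, in glucose-limited chemostats at 0.1 h-1 or at 0.025 h-1, and in late-stage retentostats, which retain the biomass and had slowed to about 0.001 h-1. Each of these 8 groups had 2 independent cultures, all held at 30 °C and pH 5.0. Per the labels, glucose was 7.5 g/L in batch and chemostats and 5 g/L in the retentostats. The volume was 1.0 L at 0.025 h-1 and 1.4 L in the other conditions. Per the methods, pH in the retentostats was held with ammonium hydroxide in place of potassium hydroxide, and their medium had more trace elements and vitamins. As all of these vary together with the growth regime, their parts in a difference between conditions cannot be told apart.

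Alternative NADH dehydrogenases are single-polypeptide flavoproteins of the inner mitochondrial membrane. They hand electrons from NADH to ubiquinone, as complex I does, but pump no protons, so that less ATP can be made from the same NADH. In Saccharomyces cerevisiae, which has no complex I, Ndi1 works on the matrix side, and the Nde enzymes face the intermembrane space and oxidize cytosolic NADH. The side of the membrane on which O. parapolymorpha Ndh2-1 works is not known.

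The 16 libraries held 16522183 to 20898682 reads in genes, recovered as whole numbers from the deposited FPKM values. Ndh2-1 had 356 to 11156 of these reads per library, and the exact 95% Poisson interval of its count spanned 1.86% to 10.5% of the count on either side, which covers counting error only. Paired cultures differed by an SD of 0.135 to 0.282 on the log2 scale over all genes tested in 7 groups, and by 0.889 in the IMD010 chemostats at 0.1 h-1, so results that rest on that pair are also given without each culture. NUBM itself was transcribed in both strains, at 1743 to 3039 TMM-normalized FPKM in the glucose-limited cultures of CBS11895 and 2448 to 4017 in those of IMD010. A frameshift need not change the number of reads, so these levels do not check the strain labels.

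In wild-type cells the Ndh2-1 transcript was abundant during fast growth on excess glucose and scarce once glucose was limiting. In strain IMD010 it stayed much higher in the chemostats, and of the glucose-limited conditions the strains lay nearest to each other in the retentostats. In the CBS11895 batch cultures the level was 3364 and 2989 TMM-normalized FPKM (3177 ± 265, SD, n = 2). Reads were taken from the RNA of whole cultures, so fewer cells with the transcript and less transcript per cell cannot be told apart. TMM normalization rescales each library so that most genes match, and since the same divisor stands under every value of a gene, these FPKM values rank cultures but not genes. At 0.1 h-1 the wild type had 241 and 244 (243 ± 2.33). At 0.025 h-1 it had 87.0 and 104 (95.5 ± 12.1), the lowest values of the series. In the retentostats it had 171 and 169.6 (170.3 ± 1.11). Every glucose-limited wild-type culture thus lay more than 10-fold below both batch cultures. The 3 glucose-limited groups did not overlap one another, though those at 0.1 h-1 and in the retentostats were not called apart (FDR 0.059 by limma). The share of genes with such separated groups was not counted.

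The IMD010 batch cultures had 2106 and 1999.8 TMM-normalized FPKM (2053 ± 75.3, SD, n = 2). At 0.1 h-1 strain IMD010 had 1327 and 832 (1079 ± 349.8), and these cultures stood 1.59-fold apart, the widest gap of any pair for this gene. At 0.025 h-1 it had 348 and 294 (321 ± 38.7), and in the retentostats 261 and 278 (269.5 ± 12.4). The 4 IMD010 groups did not overlap one another either, though those at 0.025 h-1 and in the retentostats were not called apart (FDR 0.384 by limma). Here too the share of genes with such separated groups was not counted. The step from batch to 0.1 h-1 was far smaller than in the wild type.

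**Figure D1:**
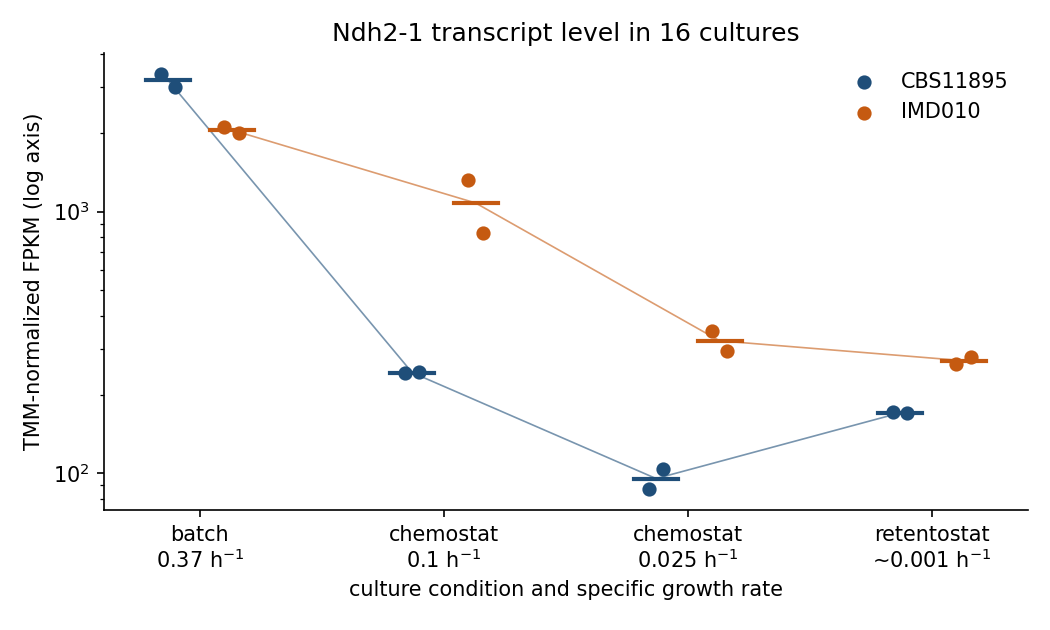
TMM-normalized FPKM of Ndh2-1 (log axis) in each of the 16 cultures, by condition and strain; points are cultures, short bars are means of 2 cultures and thin lines join the means. IMD010 lies above CBS11895 in the 3 glucose-limited conditions and below it in batch.

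The first question was whether the strain with the disrupted complex I gene has a different Ndh2-1 level when glucose limits growth. The transcript was higher in IMD010 in both chemostats, with every IMD010 culture above every wild-type culture. At 0.1 h-1 it was 4.32-fold higher (log2 fold change 2.11, SE 0.19, FDR 0.00048 by limma), the change ranking 3rd from the top among 5233 genes tested. In this comparison 2.5% of the genes were higher in IMD010 at an FDR under 0.05. Left out in turn, the IMD010 cultures gave 3.42-fold and 5.45-fold, both called. In a fit of the 4 chemostats at 0.1 h-1 alone, the FDR was 0.577. That fit takes its spread from the pairs of both strains, the IMD010 pair that stands apart among them. At 0.025 h-1 it was 3.34-fold higher (log2 fold change 1.74, SE 0.19, FDR 0.00122) and ranked 11th, against 0.955% of genes called higher. Only 0.631% of the genes, 33 in all, were called higher in both chemostats, and Ndh2-1 was among them. These counts depend on single libraries, as the genes called higher at 0.1 h-1 numbered 131 with all cultures, 12 and 14 without CBS11895 replicate 1 or 2, 127 without IMD010 replicate 1 and 2200 without IMD010 replicate 2.

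In the retentostats the difference was smaller, 1.58-fold (log2 fold change 0.66, SE 0.19), and the groups of 2 again did not overlap. It did not pass the FDR of 0.05 (0.0991), where 1.82% of genes were called higher. It did pass under some alternatives. Without 1 or both of the IMD010 cultures of 0.1 h-1 in the fit the same fold change had an FDR of 0.00147, and in a fit of the 4 retentostat cultures alone one of 0.00529. With a gene-length trend removed the log2 fold change was 0.69 (FDR 0.0316). Averaged over the 3 glucose-limited conditions, Ndh2-1 was 2.83-fold higher in IMD010 (log2 fold change 1.50, SE 0.11, FDR 1.65e-05), against 7.99% of genes called higher. An exact two-sided permutation of the strain labels within each condition, over the 12 glucose-limited cultures, gave p = 0.00926, the smallest that its 216 arrangements allow. All 6 IMD010 cultures lay above both wild-type cultures of their condition, a pattern shared by 8.26% of the genes tested. By the stricter limits used in the study, a log2 fold change of more than 2 in size with an FDR under 0.001, Ndh2-1 was called at 0.1 h-1 only, where 0.0573% of the genes, 3 in number, were called higher.

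In batch the order was reversed on the main scale, the level in IMD010 being 1.54-fold below that of the wild type (log2 fold change -0.63, SE 0.19, FDR 0.0122). This comparison moved much of the transcriptome, with 42.9% of genes called lower and 30.6% higher, and the median gene lay at -0.21. Relative to that median Ndh2-1 was at -0.42. The strain difference in batch also ran with gene length (Spearman rho of -0.373 across 5233 genes, which are not independent), short genes tending to be higher in IMD010 and long genes lower. With a smooth length trend removed from each library, the Ndh2-1 difference was -0.15 (FDR 0.403), and with the values as deposited it was -0.28 (FDR 0.107). The latter scaling put the median gene at 0.13 and called 2019 genes higher and 1546 lower, against 1599 and 2245 on the main scale. Without CBS11895 batch replicate 1 its FDR was 0.0755, and without IMD010 batch replicate 2 it was 0.0614. The part of these library properties in the batch difference was not tested beyond these values.

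**Figure D2:**
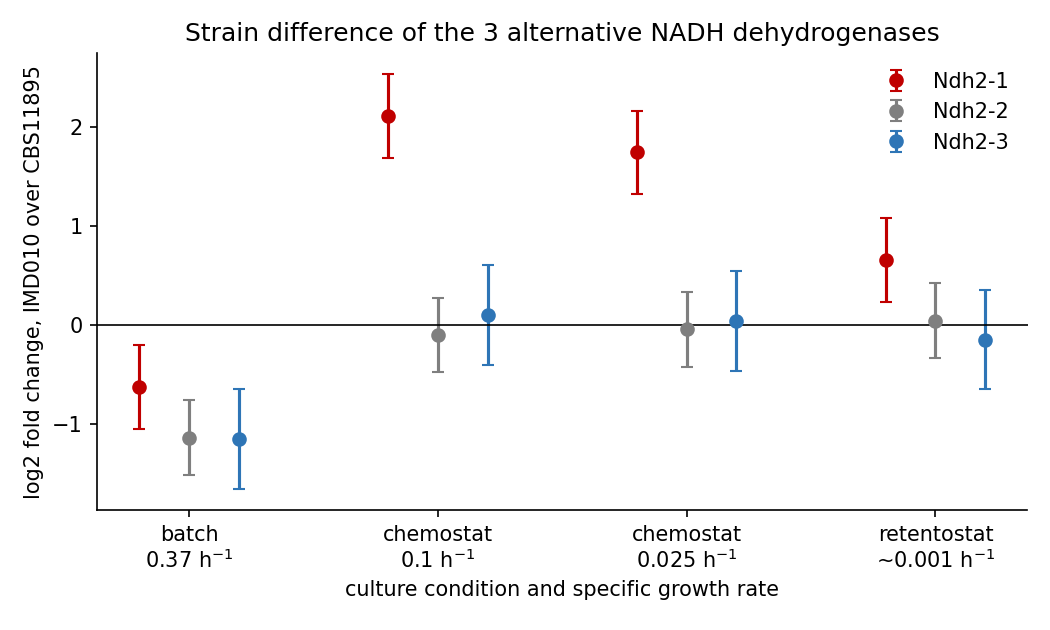
Log2 fold change of IMD010 over CBS11895 for Ndh2-1, Ndh2-2 and Ndh2-3 in each condition, with 95% confidence intervals from the limma fit of 16 cultures. Ndh2-1 lies at 2.11, 1.74 and 0.66 in the glucose-limited conditions, while the intervals of the other 2 genes include 0 there.

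Whether the strain difference itself depended on the culture condition was tested as an interaction. Between batch and the chemostats at 0.1 h-1 it changed by -2.74 (SE 0.27, FDR 0.000179), in a contrast where 44% of genes were called in that direction. Between batch and the chemostats at 0.025 h-1 it changed by -2.37 (FDR 0.000488, with 34.9% of genes called lower), and between batch and the retentostats by -1.29 (FDR 0.00406, with 29.4% called lower). These 3 contrasts share the batch libraries described above. Ndh2-2 and Ndh2-3 were called in the same direction in all 3, by -1.03 and -1.26 against 0.1 h-1, by -1.09 and -1.19 against 0.025 h-1, and by -1.18 and -1.01 against the retentostats (FDR of 0.00299 to 0.0242). With the length trend removed the 3 Ndh2-1 interactions remained below 0. Over all alternatives, which were run for Ndh2-1, they ranged from -3.07 to -2.14, from -2.49 to -1.88 and from -1.37 to -0.82.

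Within the glucose-limited conditions the strain difference was smaller in the retentostats than in the chemostats at 0.1 h-1 by 1.45 on the log2 scale (interaction -1.45, SE 0.27, FDR 0.0367, with 0.573% of genes called lower). This call was lost, with an FDR of 0.0531 to 0.163, when any culture other than the IMD010 chemostats at 0.1 h-1 was left out. Against the chemostats at 0.025 h-1 the interaction was -1.08 (FDR 0.144, with 0.153% of genes called lower). Between the chemostats it was -0.37 with a 95% confidence interval of -0.97 to 0.23 (FDR 0.54). In that last contrast limma called 0 of the 5233 genes, and 299 had an unadjusted p under 0.05. Without IMD010 chemostat 0.1 replicate 2 it was -0.71 with an FDR of 0.00336, and without replicate 1 it was -0.034 (FDR 0.983).

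The second question was how Ndh2-1 followed the growth regime within each strain. The transcript was higher in batch than in each glucose-limited condition in both strains. In CBS11895 it was 13.02-fold higher in batch than at 0.1 h-1 (log2 fold change 3.70, SE 0.19, FDR 8.85e-08), which ranked 13th of 5233 genes, 37.9% of which were called higher. Without TMM factors, where the median gene lay at -0.38 and 1332 genes were called higher and 2518 lower against 1982 and 1889, it was 3.28, or 3.66 relative to that median. This comparison also ran with gene length (Spearman rho of 0.326 across 5233 genes, which are not independent). With the length trend removed the log2 fold change was 3.30 (FDR 4.65e-08). Against 0.025 h-1 the factor was 33.0 (log2 fold change 5.04, FDR 4.43e-09, with 41.8% called higher), and against the retentostats it was 18.5 (log2 fold change 4.21, FDR 1.13e-08, with 39.2% called higher). In IMD010 the batch level was 1.95-fold that at 0.1 h-1 (log2 fold change 0.97, SE 0.19, FDR 0.00179, with 24% called higher). Without IMD010 chemostat 0.1 replicate 1 the log2 fold change was 1.30, without replicate 2 it was 0.63, and in a fit of these 4 cultures alone the FDR was 0.162. The IMD010 batch level was 6.40-fold that at 0.025 h-1 (FDR 7.39e-07, with 28.1% called higher) and 7.59-fold that in the retentostats (FDR 1.8e-07, with 31.4% called higher).

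From 0.1 to 0.025 h-1 the transcript fell in both strains. In CBS11895 it dropped 2.53-fold (log2 fold change -1.34, SE 0.19, FDR 0.000568, with 16.3% of genes called lower). In IMD010 it dropped 3.28-fold (log2 fold change -1.71, SE 0.19, FDR 0.000151, with 26.5% called lower). A fit of the 4 IMD010 chemostats alone gave the same fold change with an FDR of 0.174.

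From 0.025 h-1 to the retentostats the strains were placed differently, although the interaction given above did not pass. In CBS11895 the level rose 1.78-fold (log2 fold change 0.83, SE 0.19, FDR 0.0131, with 9.98% of genes called higher), and it lost this call, at an FDR of 0.108, 0.0847 and 0.0756, without chemostat 0.025 replicate 1, retentostat replicate 1 or retentostat replicate 2 of that strain. In IMD010 the log2 fold change was -0.25 (SE 0.19, FDR 0.384, with 14.4% called lower), and without TMM factors it was -0.45 (FDR 0.0351). Over the whole step from 0.1 h-1 to the retentostats, IMD010 fell 3.89-fold (log2 fold change -1.96, FDR 1.17e-05, with 29.5% called lower). CBS11895 had a log2 fold change of -0.51 (FDR 0.059, with 18% called lower), and without TMM factors -0.72 (FDR 0.00228).

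Taken as a line on the specific growth rate over the 6 glucose-limited cultures of a strain, with each value divided by the mean of those cultures, Ndh2-1 had a slope of 15.5 per h-1 in IMD010 (SE 2.85, R2 0.842, adjusted p 0.0275 by limma). It met the limits set here, an adjusted p under 0.1 and R2 above 0.8, as did 6.34% of genes with a positive slope. Without retentostat replicate 1 or replicate 2 of IMD010 the adjusted p was 0.113 and 0.139. In CBS11895 the slope was 6.05 (SE 2.43, R2 0.514, adjusted p 0.0991), below the R2 limit that 16.6% of genes met with a positive slope. The wild-type cultures departed from a line in that the chemostats at 0.025 h-1 lay below the retentostats. The difference between the slopes was not tested.

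Ordered by mean level, the groups ran from CBS11895 batch and IMD010 batch through IMD010 at 0.1 h-1, IMD010 at 0.025 h-1, IMD010 retentostat, CBS11895 at 0.1 h-1 and CBS11895 retentostat to CBS11895 at 0.025 h-1. Of the neighbours in this order, 3 pairs did not pass an FDR of 0.05. These were IMD010 at 0.025 h-1 and in the retentostat (FDR 0.384), IMD010 retentostat and CBS11895 at 0.1 h-1 (1.11-fold apart, FDR 0.58), and CBS11895 at 0.1 h-1 and in the retentostat (FDR 0.059). The cultures of the last pair did not overlap, and their log2 fold change had a 95% confidence interval of -0.93 to -0.09.

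The other alternative NADH dehydrogenases, Ndh2-2 (HPODL_00256) and Ndh2-3 (HPODL_02018), shared the high batch level but not the strain difference under glucose limitation. From 0.1 h-1 to batch Ndh2-2 rose 3.62-fold in CBS11895 and 1.77-fold in IMD010 (FDR 4.48e-06 and 0.00234). Ndh2-3 rose 6.58-fold and 2.76-fold (FDR 2.37e-06 and 0.00037). With the length trend removed, the log2 fold changes of Ndh2-2 and Ndh2-3 in CBS11895 were 1.44 and 2.31, against 1.86 and 2.72. In IMD010 they were 1.01 and 1.55, against 0.82 and 1.46. Over the glucose-limited conditions their strain differences were -0.03 for Ndh2-2 (SE 0.10, FDR 0.822) and 0.00 for Ndh2-3 (SE 0.13, FDR 0.999), and at 0.1 h-1 the 95% confidence intervals reached from -0.48 to 0.27 and from -0.40 to 0.61. In batch both were lower in IMD010, by 2.20-fold and 2.22-fold (FDR 0.000245 and 0.00116), and with the length trend removed these differences were -0.64 and -0.71 and still passed.

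Levels of different genes were compared as reads per kilobase of annotated gene and library size, scaled by TMM. On this scale Ndh2-2 was the most abundant of the 3 in every sample, with group means of 176 to 741. Ndh2-1 ran from 12.4 in the CBS11895 chemostats at 0.025 h-1 to 413 in the CBS11895 batch cultures, and Ndh2-3 from 36.0 to 247. Ndh2-1 had the widest span of the 3 over the 8 groups. It lay above Ndh2-3 in 8 of the 16 samples, namely in batch of both strains and in both IMD010 chemostats.

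As a share of the reads per kilobase of the 3 genes together, Ndh2-1 made up 28.2% and 31.1% in the CBS11895 batch cultures. It made up 11.6% and 11.7% at 0.1 h-1, 4.79% and 6.05% at 0.025 h-1, and 8.25% and 8.08% in the retentostats of that strain. In IMD010 the share was 37.8% and 37.2% in batch and 38.1% and 36.7% at 0.1 h-1. It was 17.6% and 15.1% at 0.025 h-1 and 12.01% and 12.5% in the retentostats. The share was higher in every IMD010 culture than in either wild-type culture of the same condition, batch included, and the pair of IMD010 cultures at 0.1 h-1 that stood apart over the genome differed little in it.

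Because this ratio is taken within a library, it needs no scaling between libraries. The ratio of Ndh2-1 to Ndh2-2 was 4.65-fold higher in IMD010 at 0.1 h-1, 3.46-fold at 0.025 h-1, 1.54-fold in the retentostats and 1.42-fold in batch. The ratio of Ndh2-1 to Ndh2-3 was 4.03-fold, 3.26-fold, 1.75-fold and 1.44-fold higher. An exact two-sided permutation over the 12 glucose-limited cultures, chosen after the data were seen, gave p = 0.00926 for each ratio (adjusted over the 2 tests, also 0.00926), again the smallest possible. Both ratios use the Ndh2-1 counts of the first permutation, so this is no separate support for the strain difference. With 2 batch cultures per strain no such permutation can pass.

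**Figure D3:**
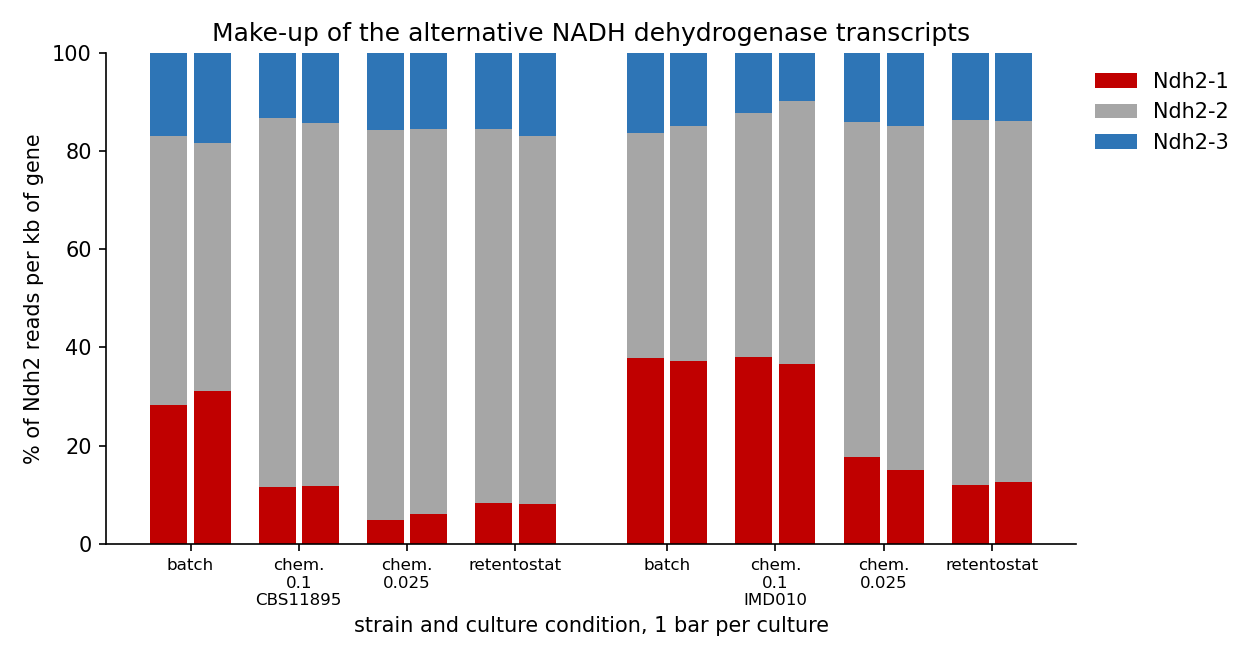
Share of Ndh2-1, Ndh2-2 and Ndh2-3 in the reads per kilobase of the 3 genes, 1 bar per culture. The Ndh2-1 share runs from 4.79% in a wild-type chemostat at 0.025 h-1 to 38.1% in an IMD010 chemostat at 0.1 h-1.

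Complex I, the other entry point for NADH electrons, was transcribed in the opposite order between batch and 0.1 h-1. From 0.1 h-1 to batch, where Ndh2-1 rose, 5 of the 7 essential nuclear subunits tested fell in CBS11895 and 6 of 7 in IMD010, against 36.1% and 27.7% of all genes. Their median log2 fold changes were -0.93 and -1.46, with medians of 0.04 and 0.00 over all genes. In CBS11895 the fall ranged from -1.24 for NUHM to -0.55 for NUBM, and in IMD010 from -1.98 for NUGM to -0.63 for NUCM. Of the 22 accessory subunits 17 fell in CBS11895 and 19 in IMD010, and none rose. With the length trend removed the accessory counts were 13 lower and 3 higher in CBS11895, against 38.8% and 34.2% of all genes, and 22 lower and 0 higher in IMD010, against 28.1% and 24.6%.

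Between strains under glucose limitation, few complex I genes passed the test. Averaged over the 3 conditions, 1 of the 7 essential subunits was higher in IMD010, against 7.99% of all genes. It was NUBM, the mutated gene, at 1.33-fold (FDR 0.00674), and the median of the 7 was 0.10 against -0.01 over all genes. With the length trend removed 2 of the 7 were called higher, against 476 of the 5233 genes tested. At 0.1 h-1, where the difference of Ndh2-1 was largest, the median of the 7 was 0.42 against 0.05 over all genes, with values from -0.18 for NUAM to 0.79 for NUGM. There limma called 0 of the 7, and 3 had an unadjusted p under 0.05. Over the mean of the 3 conditions limma called 0 of the 22 accessory subunits, with 3 at an unadjusted p under 0.05, and their median was -0.03.

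Other enzymes that feed electrons into the respiratory chain or work below it were read from the part of the study's annotation at hand, so these lists are incomplete. Among 4 further ubiquinone-reducing dehydrogenases, 1 was higher in IMD010 over the glucose-limited conditions, the electron transfer flavoprotein-ubiquinone oxidoreductase (HPODL_00371), which passes electrons from fatty acid and amino acid breakdown to ubiquinone. It was 1.31-fold higher (FDR 0.00695), and the median log2 fold change of the list was 0.38. By condition the log2 fold change of HPODL_00371 was 0.54 at 0.1 h-1, 0.82 at 0.025 h-1 and -0.20 (FDR 0.565) in the retentostats. Mitochondrial proline dehydrogenase (HPODL_00631) was at -0.70 in the retentostats (FDR 0.0459), where 93 of the 5233 genes were called lower. Of 3 cytochrome c oxidase subunits, subunit IV was higher by 1.42-fold (FDR 0.00148). Of 4 ATP synthase subunits, 1 of the epsilon type (HPODL_01793) was higher by 1.43-fold (FDR 0.0493). Of 10 genes of the pyruvate dehydrogenase complex and the TCA cycle, which make mitochondrial NADH, 4 were higher and none lower, against 7.99% and 5.27% of all genes. They ran from 1.197-fold for pyruvate dehydrogenase E1 alpha (FDR 0.0359) to 1.76-fold for mitochondrial malate dehydrogenase (FDR 0.00231), with a list median of 0.26. By condition limma called 2 of the 10 higher at 0.1 h-1, against 2.5% of all genes. It called 0 of the 10 at 0.025 h-1 and in the retentostats, where 3 and 5 had an unadjusted p under 0.05. In batch 7 were lower in IMD010 and 2 higher, against 42.9% and 30.6% of all genes. Over the mean of the glucose-limited conditions, no strain difference called in these lists reached the 2.83-fold of Ndh2-1.

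Across the 8 group means of the log2 level, the genes whose profile was most like that of Ndh2-1 were HPODL_05039 (Pearson r 0.993), HPODL_02175 (0.989), HPODL_05107 (0.986), HPODL_04320 (0.982) and HPODL_01510 (0.981). Over the 16 samples their r was 0.950, 0.984, 0.983, 0.926 and 0.971. HPODL_01510 is annotated as Tom40, the pore of the mitochondrial protein import machinery, and the others carry no name in the sources used here. Such likeness was common, with 328 of the 5232 other genes at an r of at least 0.9 and 240 at or below -0.9, and all points of a gene share the same 16 libraries. Ndh2-3 had an r of 0.833 and Ndh2-2 one of 0.783.

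HPODL_05107, on chromosome I, was the member of this set whose amplitude came closest to that of Ndh2-1. Its level in CBS11895 was 860 and 799 TMM-normalized FPKM in batch, 44.8 and 30.4 at 0.1 h-1, 14.9 and 12.4 at 0.025 h-1, and 16.9 and 21.3 in the retentostats. In IMD010 it was 443 and 455 in batch, 155 and 105 at 0.1 h-1, 58.8 and 53.5 at 0.025 h-1, and 55.9 and 56.1 in the retentostats. IMD010 thus lay below the wild type in batch and above it in the 3 glucose-limited conditions, by log2 fold changes of -0.88, 1.76, 1.97 and 1.51 from batch to retentostats. The other 4 genes of the set had batch to 0.1 h-1 differences of 0.90 to 1.33 in CBS11895, against 3.70 for Ndh2-1.

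The most opposite profiles were those of HPODL_03374 (r -0.992), HPODL_01253 (-0.987) and HPODL_02710 (-0.985). HPODL_03374, a gene of 279 bp on chromosome IV, had 40.4 and 27.0 TMM-normalized FPKM in the CBS11895 batch cultures and 1466 and 1353 at 0.1 h-1. It had 6823 and 7348 at 0.025 h-1 and 4644 and 5250.4 in the retentostats. In IMD010 it had 45.7 and 49.5 in batch, 186 and 271 at 0.1 h-1, 1289.7 and 1536 at 0.025 h-1, and 1273 and 1499 in the retentostats. In the glucose-limited conditions Ndh2-1 lay higher in IMD010, a difference not called in the retentostats. HPODL_03374 lay lower there, by log2 fold changes of -2.64, -2.33 and -1.84 from 0.1 h-1 to the retentostats. As these genes were picked for their likeness to Ndh2-1 in the same samples, their values are a description and carry no test.

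**Figure D4:**
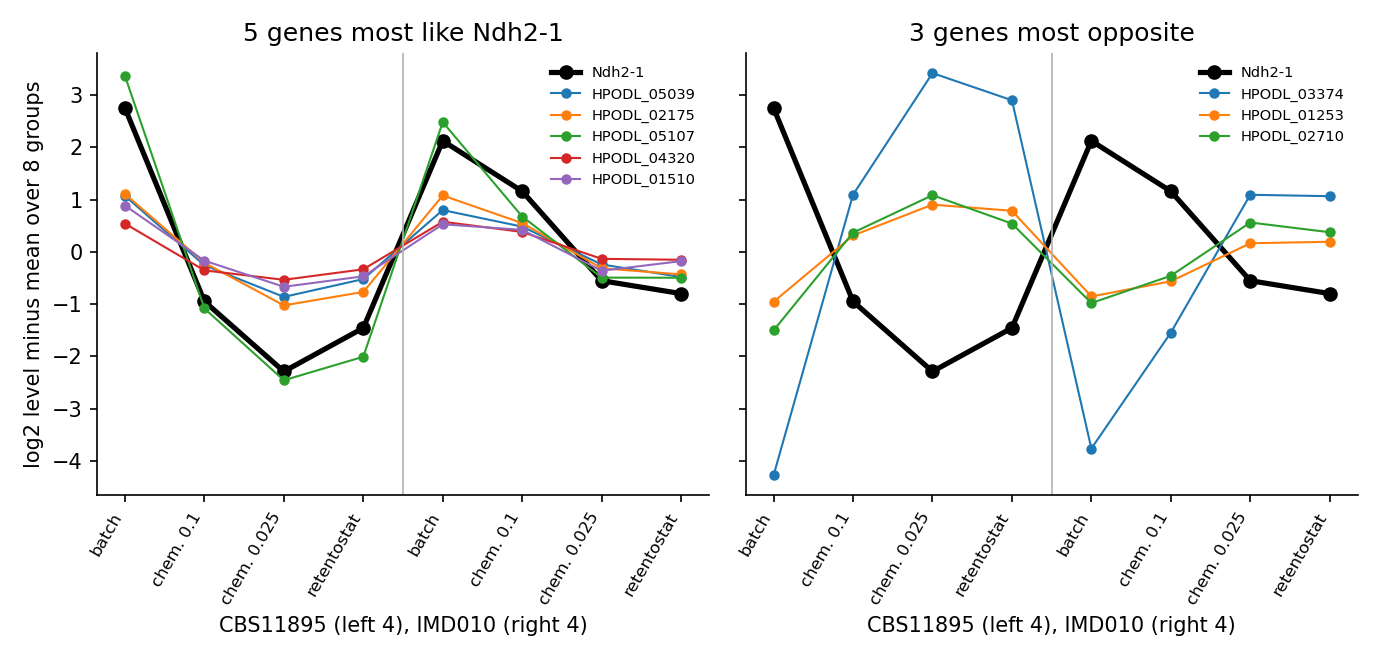
Group means of log2(TMM-normalized FPKM + 1) minus the mean over the 8 groups, for Ndh2-1 (black) with the 5 genes most like it (left) and the 3 most opposite (right). Between batch and 0.1 h-1 in CBS11895, Ndh2-1 differs by 3.70, HPODL_05107 by 4.45 and HPODL_03374 by -5.37, and the other genes by at most 1.33 upward and -1.87 downward.

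On chromosome VII the nearest annotated gene is HPODL_02793, 53 bp beyond position 733794, and HPODL_02791 ends 373 bp before position 732181. The strand of these genes is not in the sources used here, and how the counting treated strand is not given. HPODL_02791 had a profile close to that of Ndh2-1 (r 0.977), with a strain difference of 0.84 at 0.1 h-1 (FDR 0.0468) and of 0.35 at 0.025 h-1 (FDR 0.489), and it rose by 1.91 from 0.1 h-1 to batch in CBS11895 (FDR 1.04e-05). HPODL_02793 had an r of 0.938, with strain differences of 0.53 at 0.1 h-1 (FDR 0.0849) and 0.25 at 0.025 h-1 (FDR 0.572). The next genes outward, HPODL_02790 and HPODL_05344, had an r of 0.294 and 0.185. None of the 4 neighbours had a strain difference at 0.1 h-1 above 0.91, against 2.11 for Ndh2-1.

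**Figure D5:**
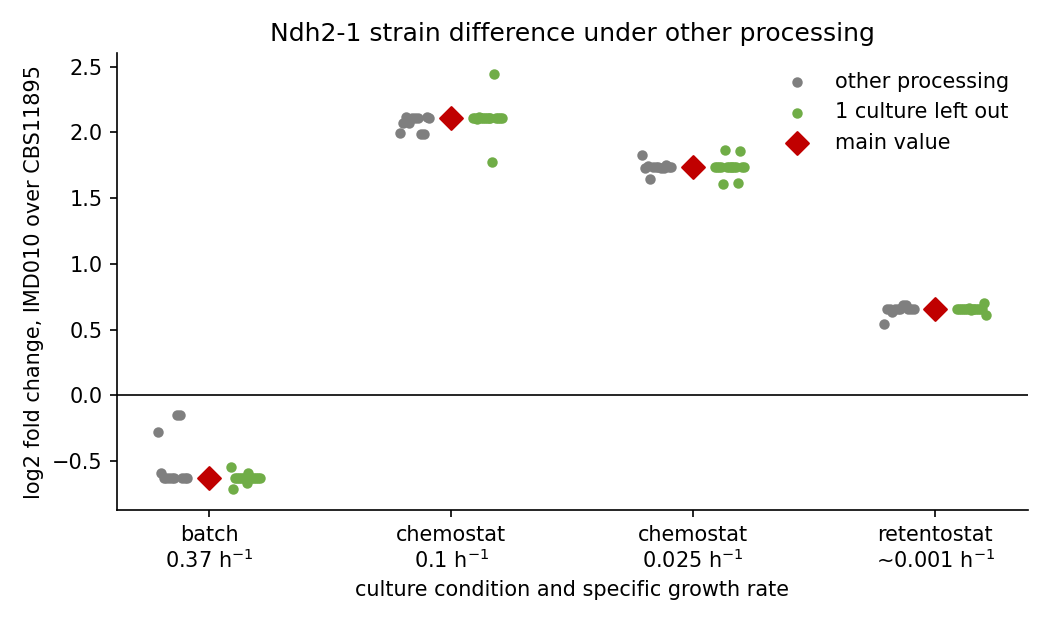
Log2 fold change of Ndh2-1, IMD010 over CBS11895, in each condition as reported (diamond), under other processing (grey) and with 1 culture left out (green). In the chemostats at 0.1 h-1 the values run from 1.77 to 2.45, and in batch from -0.71 to -0.15.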

How the data were processed

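The files held FPKM values per gene, 1 file per culture. Per the methods and labels, the authors quenched broth in liquid nitrogen, prepared strand-specific poly(A) libraries, aligned reads with STAR 2.5.3a, removed ambiguously mapped reads, counted with HTSeq and deposited the FPKM values. The divisor of each gene was sought so that its reads came out whole. That 100% of values lay within 0.1 read of a whole number is therefore no check. The recovered reads of each library summed to 1.0 times the total implied by its FPKM scale. The deposited FPKM divided the reads not by gene length but by a whole number from 1 to 1120. This number followed the length sorted as text (Spearman rho 0.986, against -0.383 for length as a number), so levels between genes were recomputed per annotated kilobase.

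TMM factors (trimming 30% of log ratios and 5% of levels) were computed from the recovered reads. Genes with a group mean of at least 10 TMM-normalized FPKM, 5233 in all, were fitted as log2(value + 1) with limma 3.58.1 in R 4.3.3, over 8 groups and 16 samples, with Benjamini-Hochberg adjustment over genes. Fold changes are on that scale. Growth-rate slopes were fitted with limma to mean-normalized values, in place of the maSigPro regression of the study. The steps were tested on simulated data with the same spread in all groups. For IMD010 against CBS11895 at 0.1 h-1, 92.9% of planted log2 changes of 1 and 100% of those of 2 were recovered. The wider spread of the real IMD010 pair at 0.1 h-1 was not simulated. Alternatives changed scaling, pseudocount, filter, samples, replicate block, gene length, weights and variance prior, and left out each culture. Named were Ndh2-1, its paralogs, NUBM, the extremes of each list, the genes most and least like it, and its neighbours. Members and lists were chosen with earlier results of these data known.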

Additional observations from a re-analysis of the deposited data

Results flagged for a closer look

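The strain difference of Ndh2-1 changed with the culture condition in 4 of the 6 interaction tests (limma, FDR under 0.05). It differed between batch and the chemostats at 0.1 h-1 by -2.74, between batch and those at 0.025 h-1 by -2.37, and between batch and the retentostats by -1.29 (FDR 0.000179, 0.000488 and 0.00406). In these batch contrasts 44%, 34.9% and 29.4% of all genes were called lower, Ndh2-2 and Ndh2-3 among them, which differed between batch and the retentostats by -1.18 and -1.01 (FDR 0.00364 and 0.0242). In batch both IMD010 cultures lay below both wild-type cultures, in a comparison where 42.9% of genes were called lower. The share of genes with that order of cultures was not counted. With the length trend removed the batch strain difference was -0.15 (FDR 0.403). In the glucose-limited conditions all IMD010 cultures lay above the wild-type cultures of their condition, as for 8.26% of the genes tested. Between the retentostats and the chemostats at 0.1 h-1 it differed by -1.45 (FDR 0.0367), a call that also depended on which cultures were in the fit.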

How the results depend on the processing

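Over 26 results for Ndh2-1 and 688 alternative values, none changed direction and 642 kept their side of the threshold. The strain differences in the chemostats, their mean over glucose-limited conditions and the batch to glucose-limited differences of CBS11895 kept theirs, except as listed. With values as deposited (no TMM factors), which moved the median gene of the batch strain comparison from -0.21 to 0.13, that strain difference was -0.28, the CBS11895 retentostat to 0.1 h-1 step -0.72, the IMD010 retentostat to 0.025 h-1 step -0.45, and the retentostat minus 0.025 h-1 interaction -1.29, the first losing and the others gaining the call. With only the 4 samples of a contrast, the strain difference at 0.1 h-1 (2.11, FDR 0.577) and the IMD010 steps from 0.1 h-1 to batch (0.97, FDR 0.162) and to 0.025 h-1 (-1.71, FDR 0.174) lost the call. The retentostat strain difference (0.66) and the CBS11895 retentostat to 0.1 h-1 step (-0.51) gained it there and without either IMD010 culture of 0.1 h-1, where the retentostat minus 0.025 h-1 interaction (-1.08) did too, an alternative chosen after seeing the data. With the length trend removed, with or without the replicate block, the batch strain difference was -0.15, and the retentostat strain difference (0.69) and the CBS11895 retentostat to 0.1 h-1 step (-0.50) passed. The cause of these changes was not tested. At the limits of the study 374, 4, 1 and 7 genes were called between strains from batch to retentostat, against 3844, 177, 78 and 188 at an FDR under 0.05. Without IMD010 chemostat 0.1 replicate 2, 2200 genes were called higher and 1927 lower at 0.1 h-1, and without 1 of the CBS11895 cultures 12 to 14 and 3 to 4.

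Leaving out 1 culture gave -0.71 to -0.54 for the batch strain difference, 0.61 to 0.70 for that in retentostats, 0.71 to 0.96 for the CBS11895 retentostat to 0.025 h-1 step and -0.52 to -0.50 for its retentostat to 0.1 h-1 step. It gave -1.79 to -1.12, -1.21 to -0.95 and -0.71 to -0.034 for the interactions retentostat minus 0.1 h-1, retentostat minus 0.025 h-1 and 0.025 minus 0.1 h-1, and 13.8 to 21.96 for the IMD010 slope. Nothing in the labels ties same-numbered replicates together, and their differences correlated between strains at -0.00542, 0.286, 0.15 and -0.0335 from batch to retentostat. The replicate block alone changed no call (2.11, FDR 0.00103, at 0.1 h-1). For slopes the variance prior was made robust without a trend, as all genes have the same mean. Of the 5 genes most like Ndh2-1, 3 stayed by r over 16 samples and 1 by Spearman rho. With 2 cultures per group, the limma p-values lean on a spread pooled over groups.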

Other observations

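The order of Ndh2-1 and Ndh2-3 depends on how the length of a gene enters the value. By the deposited FPKM, which divide the reads of Ndh2-1 by 210 and those of Ndh2-3 by 371, Ndh2-1 lay above Ndh2-3 in 12 of the 16 samples. Per kilobase of annotated length (1614 and 2097 bp) it did so in 8. In the CBS11895 chemostats at 0.1 h-1 the ratio of Ndh2-1 to Ndh2-3 was 1.18 and 1.12 in the deposited values and 0.87 and 0.825 per kilobase. In the IMD010 retentostats it was 1.19 and 1.22 as deposited and 0.874 and 0.90 per kilobase. The ratio of a gene's own values between samples is not touched by this. The added 1 and the filter at 10 act on values that carry the divisor, so the fitted fold changes and the set of genes tested depend on it.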
